A study of Arabidopsis thaliana with 6 samples.

Results

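The xyloglucan endotransglucosylase/hydrolase (XTH) family of Arabidopsis thaliana was followed by its 33 gene identifiers, XTH1 to XTH33, in an RNA sequencing count table of 24267 genes. Of these, 30 had a row in the table and all 30 had enough counts to be tested, while XTH1 (AT4G13080), XTH2 (AT4G13090) and XTH3 (AT3G25050) had none. All 33 identifiers matched a RefSeq locus, 30 of them with an XTH symbol, and the others with older names of the same genes: TCH4 for XTH22, XTR6 for XTH23 and EXGT-A3 for XTH27. The samples were wild-type Columbia seedlings, moved at 4 days of age from plain Murashige and Skoog plates to plates with solvent, hormone or melatonin and collected 72 h later. The control group received ethanol at 0.1%, the IAA group 1 nM IAA (indole-3-acetic acid, an auxin that plants make themselves) and the MT group 10 nM melatonin (MT), an indole that plants, like IAA, make from tryptophan. The titles of the control samples call them without treatment, although ethanol is recorded for them. No ethanol content is recorded here for the IAA and MT plates, so a match of solvent between groups is not known. Each group had 2 libraries, with totals of 35953236 to 46076624 counts. The tissue is given as seedlings in the sample labels but as rosette leaves in the series' design text. All 24 genes of a root marker list and all 19 of a green shoot list had counts, so roots and shoots were both present in the RNA. Whether the 2 libraries of a group were grown as separate cultures is not stated, so a p-value reflects the spread between these libraries only, and that spread may be technical.

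Xyloglucan is a branched glucan that coats and links cellulose microfibrils in the primary walls of growing plant cells. XTH enzymes cut its backbone and either join the cut end to another xyloglucan chain (endotransglucosylase activity) or pass it to water (hydrolase activity), and both reactions are part of wall loosening, wall strengthening and the insertion of new polymer. The family is usually divided by sequence into groups I (XTH1 to XTH11), II (XTH12 to XTH26) and III (XTH27 to XTH33). Most enzymes studied in groups I and II are endotransglucosylases, while XTH31 and XTH32 of group III are known mainly as hydrolases.

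The catalytic site is the stretch that members of this family share most clearly, and its coding sequence is shown for the members that changed with melatonin and for XTH22. The 24 bases below are from RefSeq's TAIR10.1 genome, and the 3 codons in capitals are those of the acidic residues of the site, a glutamate, an aspartate and a glutamate.
XTH4: gacGAGataGACtttGAGttcctt
XTH6: gacGAGctaGATtttGAGttcttg
XTH8: gacGAGataGATttcGAAtttcta
XTH15: gacGAGataGACtttGAGtttcta
XTH16: gacGAGataGACtttGAGtttctt
XTH22: gacGAGataGATttcGAGttttta
XTH24: gatGAGattGATtttGAGttcttg
XTH25: gacGAAatcGATttcGAGtttctt
XTH27: gatGAGataGATtttGAGtttctt
XTH31: gatGAGgtcGATatcGAGtttcta
XTH33: gacGAGataGACataGAAttgttg
The site was found by the same search in 32 of the 33 members and not in XTH11. The codon just before the last capitals is ttt or ttc in 27 of these and ata or atc in 5, XTH29 to XTH33. Of the sequences shown, XTH31 and XTH33 have the latter.

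Levels differed widely between members. For this comparison between genes, CPM (counts scaled to a common library size, with TMM factors) were divided by kilobases (kb) of coding sequence. XTH4 (AT2G06850), an abundant enzyme of expanding and woody tissues, was highest, at 888 ± 141 CPM per kb in the control, 661 ± 45.0 with IAA and 475 ± 49.5 with MT (mean ± SD, n = 2 libraries each). XTH24 (AT4G30270), first described as a meristem-associated gene, followed in the control at 677 ± 7.42 CPM per kb. XTH22 (AT5G57560), better known as the touch-induced gene TCH4, had 269.9 ± 23.0 CPM per kb in the control, XTH27 (AT2G01850) 237 ± 7.14 and XTH9 (AT4G03210) 193 ± 9.33. These were the 5 members with the highest mean over the 3 groups. In the control the libraries of XTH22, XTH27 and XTH9 did not overlap, but with MT those of XTH27 and XTH9 did, at 164 and 173 against 151 and 257 CPM per kb. The 3 highest members of each group together made up 53.1% of the family's summed level per kb in the control, 45.9% with IAA and 41.2% with MT. At the other end, XTH29 (AT4G18990) had 0.573 ± 0.0367 CPM per kb in the control, from 21 and 24 counts, and XTH11, XTH21, XTH10, XTH20 and XTH25 stood at 2.40 to 8.26.

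**Figure D1:**
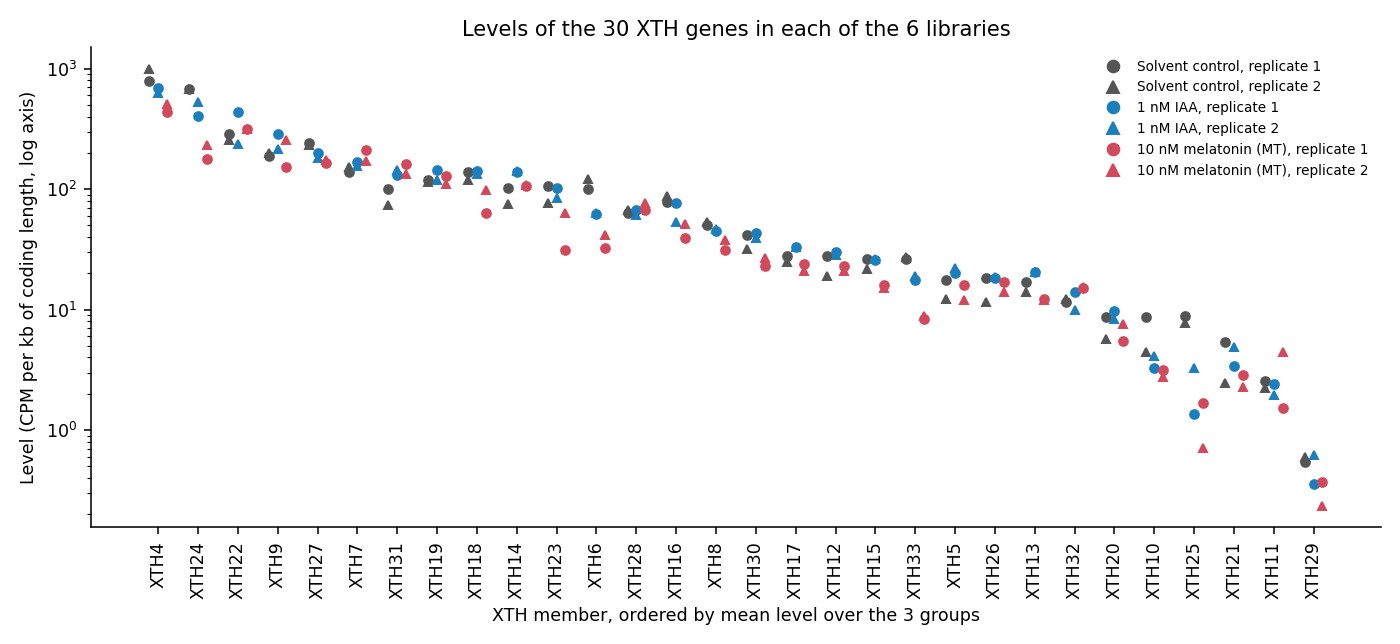
Level of each of the 30 measured XTH genes in every library, in CPM per kb of coding length on a log axis, ordered by the mean over the 3 groups (circles replicate 1, triangles replicate 2). XTH4 and XTH24 lead the control libraries at 888 and 677 CPM per kb, and the MT libraries of XTH24, XTH6, XTH33 and XTH25 lie below those of the control.

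In bulk RNA of whole seedlings a lower level can mean fewer cells of a type or less RNA per cell, and these cannot be told apart. With MT the summed level of the family was lower than in the control, at 2018 and 2241 CPM in the 2 MT libraries against 3003 and 3055 CPM in the control libraries. XTH4 and XTH24 made up 83.4% of this difference, and the other 28 members summed to 1483 and 1597 CPM with MT against 1748 and 1631 CPM in the control, 91.2% of the control mean. Of the 30 members 9 fell, 1 rose and 20 did not pass (edgeR's quasi-likelihood test with Benjamini-Hochberg adjustment over all 21355 genes tested, threshold 0.05). The share of members that changed was 33.3%, against 7.65% of all genes tested, and the share that fell was 30%, where over all genes 3.65% fell and 3.99% rose. The members were chosen with earlier results of these data known, so these shares and those below only describe them. At an unadjusted p under 0.05 there were 14 members lower and 2 higher (53.3%), against 25.2% of all genes, 12.7% lower and 12.5% higher. Both MT libraries lay below both control libraries for 16 members and above them for 5, and 55.5% of all genes had such groups without overlap. The median log2 fold change of the members was -0.42, against 0.0017 over all genes. XTH33, XTH6 and XTH24 passed whichever library was left out, but beside them only XTH4 and XTH31 did without control replicate 1 (5 members), XTH10 without control replicate 2 (4 members) and XTH25 without MT replicate 1 (4 members), while DESeq2 called 14 of the 30 members and 14.2% of all genes.

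**Figure D2:**
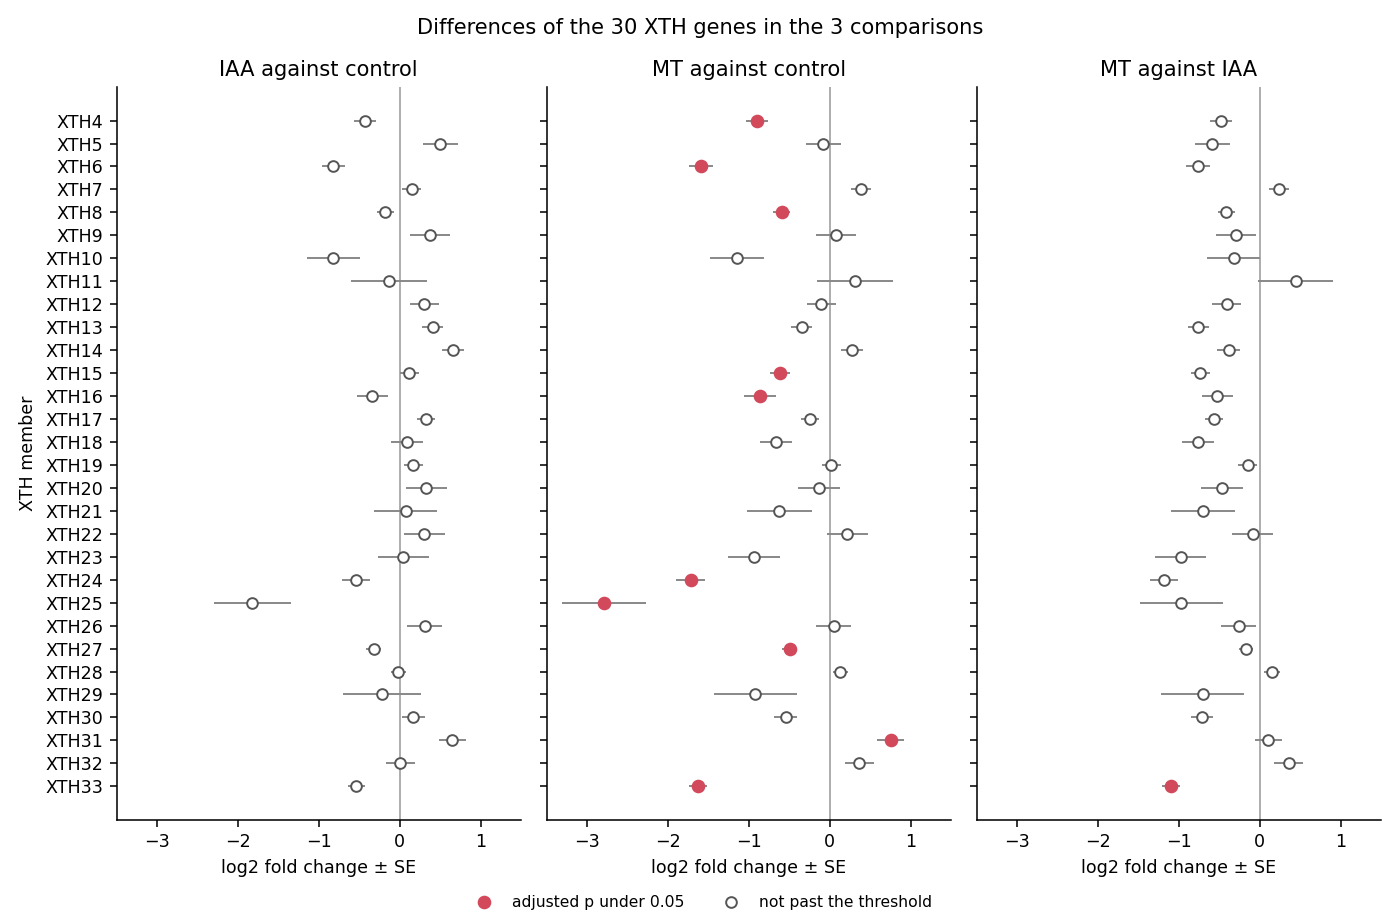
Log2 fold change ± SE of the 30 XTH genes for IAA against control, MT against control and MT against IAA, with filled red points for an adjusted p under 0.05. In the middle panel 9 filled points lie left of 0 and 1 right of it, the IAA panel has 0, and the panel of MT against IAA has 1, XTH33 at -1.09.

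Of the 8 measured group I members 3 fell with MT (37.5%), where 3.65% of all genes tested fell. XTH6 (AT5G65730) had 87.2 and 107 CPM in the control libraries, 54.5 and 55.3 under IAA and 28.2 and 36.4 under MT. The 3 groups did not overlap, and every IAA library lay between the control and the MT libraries. The log2 fold change with MT was -1.59 ± 0.15 (SE), with an adjusted p of 0.00419. XTH4 had 702.5 and 880.5 CPM in the control libraries, 618 and 561 under IAA and 392 and 454.5 under MT. Here too all MT libraries were lowest and all control libraries highest, and the log2 fold change with MT was -0.90 ± 0.14 (adjusted p = 0.0139). XTH8 (AT1G11545) had 46 and 48.8 CPM in the control, 40.9 and 42.9 with IAA and 28.5 and 34.4 with MT. Its groups stood in the same order and the change with MT was smaller, -0.59 ± 0.11 (adjusted p = 0.0234). XTH8 passed in 10 and XTH4 in 11 of 13 alternative settings. XTH10 (AT2G14620) had -1.15 ± 0.33 with MT but missed the threshold (adjusted p = 0.0859), with control libraries of 7.74 and 4.02 CPM. DESeq2 called XTH10 lower. XTH9, known from shoot apices, gave 163 and 174 CPM in the control, 249 and 188 with IAA and 132 and 224.5 with MT. Its MT libraries lay on either side of the control, and the difference was 0.08 ± 0.25 (adjusted p = 0.87). XTH5 (-0.08), XTH7 (0.39) and XTH11 (0.31) did not pass either, although XTH7 was called higher by DESeq2 and without MT replicate 2.

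Several group II members are neighbours in the genome: XTH24, XTH18 and XTH19 lie next to each other on chromosome 4, as do XTH23 and XTH14, and XTH13, XTH25 and XTH22 do so on chromosome 5. Of the 15 members of group II 4 fell with MT (26.7%) and 0 rose, where 3.65% of all genes tested fell and 3.99% rose. XTH24 had 552 and 544 CPM in the control libraries, 325 and 431 under IAA and 144 and 189 under MT. The MT level was thus 30.3% of the control level, with a log2 fold change of -1.72 ± 0.18 (adjusted p = 0.0048). Its neighbours did not pass: XTH18 (AT4G30280) had -0.67 ± 0.20 (adjusted p = 0.0906) and XTH19 (AT4G30290) 0.02 ± 0.12 (adjusted p = 0.939). For XTH18 both MT libraries still lay below both control libraries, and DESeq2 called it lower. Differences between these genes were not tested. The fold change of XTH25 (AT5G57550) was larger but rested on few counts, 268 and 248 in the control, 52 and 134 with IAA and 51 and 24 with MT. In CPM these were 7.49 and 6.64, 1.17 and 2.82, and 1.44 and 0.608, so that the IAA and MT libraries overlapped and both stood below the control. Its log2 fold change with MT was -2.79 ± 0.52 (adjusted p = 0.0253), and ran from -3.53 without MT replicate 1 to -2.28 without MT replicate 2. The call was lost without control replicate 1 (adjusted p = 0.0911), control replicate 2 (0.0793) or MT replicate 2 (0.0704). XTH22, the gene next to XTH25, gave 245 and 217 CPM in the control, 370 and 201 with IAA and 268 and 269 with MT. The IAA libraries of XTH22 lay on either side of all others, and with MT the difference from control was 0.22 ± 0.25 (adjusted p = 0.643).

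The pair XTH15 (AT4G14130) and XTH16 (AT3G23730), whose coding sequences are 81.7% identical and which are known from shade-induced petiole growth, fell together. XTH16 had 68.2 and 76.1 CPM in the control, 67.2 and 47.0 with IAA and 34.2 and 45.2 with MT. Its IAA libraries were far apart, and the MT libraries were lower than all others, at -0.86 ± 0.19 (adjusted p = 0.0458). XTH15 had 22.7 and 18.99 CPM in the control, 22.6 and 22.7 with IAA and 13.97 and 13.2 with MT. For this gene the IAA libraries were at the control level, and only those with MT were lower (-0.62 ± 0.12, adjusted p = 0.0299). XTH15 overlaps AT4G14120 on the opposite strand, whose 45 to 88 counts per library are few beside those of XTH15, and whether reads were counted by strand is not given in the sources used here. XTH15 passed in 6 of 13 alternative settings and lost its call whichever library was left out (adjusted p 0.0502 to 0.122) and on only the MT and control libraries (0.0627). XTH16 passed in 8 of 13 and lost its call without control replicate 1 (0.113), control replicate 2 (0.157) or MT replicate 1 (0.165), with robust empirical Bayes (0.0622) and with the replicate block (0.0671). XTH23 (AT4G25810) had 91.3 and 65.7 CPM in the control and 26.9 and 55.0 with MT, a difference of -0.94 ± 0.32 that did not pass (adjusted p = 0.129). Its MT libraries differed 2.04-fold, and without MT replicate 2 it was called. The remaining group II members, XTH12, XTH13, XTH14, XTH17, XTH20, XTH21 and XTH26, lay between -0.62 for XTH21 and 0.27 for XTH14 on the log2 scale and did not pass.

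Of the 7 members of group III 2 fell and 1 rose with MT, where 3.65% of all genes tested fell and 3.99% rose. XTH33 (AT1G10550), which differs from most of the family in being anchored in the plasma membrane, had the smallest p of the 30 members. It had 24.3 and 25.3 CPM in the control libraries, 16.6 and 17.7 under IAA and 7.72 and 8.29 under MT. The libraries of each group lay close together and the 3 groups were well apart, with a log2 fold change with MT of -1.63 ± 0.11 (adjusted p = 0.00223). XTH27, which acts in the development of leaf veins, had 243 and 233 CPM in the control, 200.2 and 180.2 with IAA and 164 and 173 with MT. Its change with MT was the smallest of those called, -0.50 ± 0.09 (adjusted p = 0.0235), and it passed in 9 of 13 alternative settings. XTH31 (AT3G44990), a hydrolase known from the aluminium response of root walls, was the member that rose in edgeR's test. It had 89.1 and 65.0 CPM in the control, 114.5 and 127 with IAA and 143 and 117 with MT. The IAA and MT libraries overlapped and all 4 were above the control, with 0.75 ± 0.17 for MT (adjusted p = 0.0431). Its closest relative XTH32 (AT2G36870) had 0.37 ± 0.18 (adjusted p = 0.259) and XTH28 (AT1G14720) 0.13 ± 0.09 (adjusted p = 0.433). XTH30 (AT1G32170) had -0.54 ± 0.14 (adjusted p = 0.0658) and XTH29 -0.92 ± 0.52 (adjusted p = 0.317). XTH30 was called lower by DESeq2 and with robust empirical Bayes. XTH33, XTH24 and XTH6 were called under all 13 alternative settings, whereas XTH31 lost its call without control replicate 2 (adjusted p = 0.136) and without MT replicate 1 (0.154), among others.

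**Figure D3:**
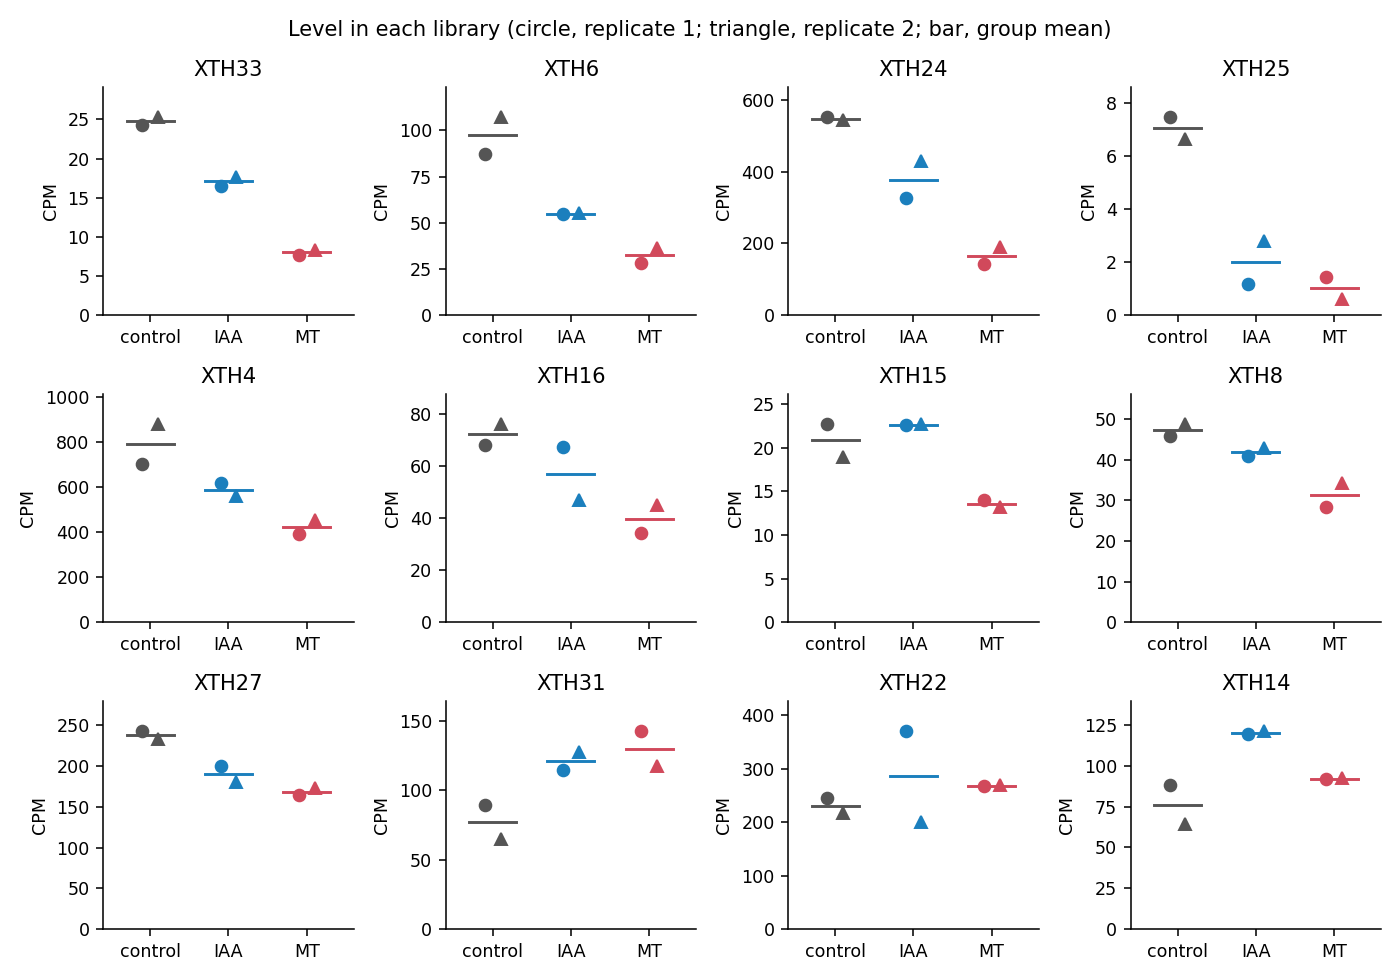
CPM in each library (linear axes from 0) of the 10 members that changed with MT, of XTH22 and of XTH14, with bars for the means of 2 libraries. XTH33, XTH6 and XTH24 stand in 3 separate steps from control through IAA to MT, XTH31 is above the control with both treatments, and the IAA libraries of XTH22 are 370 and 201 CPM.

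The promoters of all 33 members were searched for 5 short motifs on both strands, in the 250 bases before the annotated gene start. The motifs were the auxin response element TGTCTC and its form TGTCGG, the G-box CACGTG, the brassinosteroid response element CGTGTG and the W-box core TTGAC. Shown are XTH33 and XTH6, both lower with MT in every setting, XTH25, with the largest fold change, and XTH31, the member that rose. XTH24, also lower with MT in every setting, held none of the motifs and is not shown. Capitals mark a motif in either orientation, and bases run towards the gene start (RefSeq, TAIR10.1).
XTH33: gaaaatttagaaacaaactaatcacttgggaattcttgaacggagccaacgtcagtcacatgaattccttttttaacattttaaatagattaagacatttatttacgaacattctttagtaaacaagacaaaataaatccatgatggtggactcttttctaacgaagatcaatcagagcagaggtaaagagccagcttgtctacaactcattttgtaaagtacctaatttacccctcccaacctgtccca
XTH6: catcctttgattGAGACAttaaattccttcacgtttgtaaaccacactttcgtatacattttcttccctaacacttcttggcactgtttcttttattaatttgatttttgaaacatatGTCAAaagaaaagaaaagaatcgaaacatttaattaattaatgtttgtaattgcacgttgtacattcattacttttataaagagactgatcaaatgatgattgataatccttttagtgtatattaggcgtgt
XTH25: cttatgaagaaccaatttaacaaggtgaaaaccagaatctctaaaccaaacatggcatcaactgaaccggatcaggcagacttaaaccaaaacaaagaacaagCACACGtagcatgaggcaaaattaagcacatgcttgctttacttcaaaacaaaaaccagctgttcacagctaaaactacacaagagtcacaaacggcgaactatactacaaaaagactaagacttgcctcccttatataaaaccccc
XTH31: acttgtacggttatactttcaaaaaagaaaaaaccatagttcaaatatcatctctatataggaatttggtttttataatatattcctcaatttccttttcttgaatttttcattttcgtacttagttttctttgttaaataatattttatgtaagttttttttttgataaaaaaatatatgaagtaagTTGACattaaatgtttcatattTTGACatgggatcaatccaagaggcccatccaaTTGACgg
XTH6 holds 1 auxin response element, read as GAGACA on this strand, and 1 W-box core, XTH25 holds 1 brassinosteroid element, read as CACACG, and XTH31 holds 3 W-box cores. Of the 9 members that fell, 1 held TGTCTC, 0 TGTCGG, 0 the G-box, 2 CGTGTG and 3 TTGAC. In the promoters of 20915 tested protein-coding genes these motifs were found in 10.7%, 4.57%, 7.3%, 5.56% and 45.2%. Of all 30 measured members 1, 1, 0, 3 and 14 held them. These matches describe the letters of a short window and not bound sites.

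With IAA at 1 nM 0 of the 30 members passed the threshold in edgeR's test, where 0.332% of all genes tested did, 0.272% higher and 0.0609% lower. Unadjusted p was under 0.05 for 11 members (36.7%), 4 of them higher and 7 lower, against 14.3% of all genes, 6.94% higher and 7.32% lower. The IAA and control libraries did not overlap for 18 members, 9 in each direction, and for 48.4% of all genes. DESeq2 called 8 members, where it called 3.66% of all genes: XTH31 and XTH14 higher and XTH4, XTH6, XTH24, XTH25, XTH27 and XTH33 lower. The smallest adjusted p was that of XTH6, 0.101, with a log2 fold change of -0.82 ± 0.14. XTH33 had -0.54 ± 0.11 (adjusted p = 0.129), XTH24 -0.54 ± 0.17 (0.256), XTH25 -1.82 ± 0.48 (0.206) and XTH4 -0.43 ± 0.14 (0.255). XTH6 was called when the fit held only the control and IAA libraries, or without MT replicate 2. The median over the members was 0.085, with 18 above 0 and 12 below, where 49.9% of all genes were below 0. IAA and MT were compared with the same control libraries, so these values and those with MT are not independent.

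Members known from roots did not pass the threshold with IAA in edgeR's test, while DESeq2 called XTH14 higher. XTH14 (AT4G25820), an enzyme of root hairs and root epidermis, had 88.0 and 64.4 CPM in the control, 119 and 121 with IAA and 91.7 and 92.5 with MT. Its log2 fold change with IAA was 0.66 ± 0.14 (adjusted p = 0.147). XTH13 (AT5G57540) had 0.41 ± 0.13 (adjusted p = 0.258) and XTH17 (AT1G65310) 0.32 ± 0.11 (0.282). Of 9 members described from roots (XTH12, XTH13, XTH14, XTH17, XTH18, XTH19, XTH20, XTH21 and XTH26, a list drawn up after their values were seen) 0 were called by edgeR's test, which gave 3 of them an unadjusted p under 0.05. Over all genes tested with IAA 0.332% were called by edgeR's test and 14.3% had such a p. The DESeq2 count was 1 of the 9 members, where DESeq2 called 3.66% of all genes. All 9 had a fitted difference above 0, but without control replicate 2 only 7 did and without IAA replicate 2 only 8. Their median of 0.309 was 0.068 without control replicate 2 and 0.607 without control replicate 1. All 9 were higher in control replicate 1 than in control replicate 2, as was the summed level of the 24 root markers, 4775 against 3774 CPM. The root markers summed to 4750 and 5199 CPM with IAA and 3850 and 3733 with MT, and both treatments overlapped the control range. The part of root content in these values was not tested. In coding sequence XTH17, XTH18 and XTH19 share up to 2.68% of their 50-base words with another member. XTH17 and XTH18 are 92.2% identical there and XTH12 and XTH13 89.7%, with a longest shared run of 47 bases in each pair. Reads of these genes could be confused, to an extent that was not measured.

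The comparison of MT with IAA asked where the treatments differed from each other, at doses that were not matched. XTH33 was lower with MT than with IAA (-1.09 ± 0.11, adjusted p = 0.0455), and 29 members did not pass, where 0.173% of all genes tested passed, 0.0843% lower and 0.089% higher. XTH33 kept its direction in every setting, but its call was lost when any 1 library other than MT replicate 2 was left out (adjusted p 0.0708 to 0.146), with the replicate number as a block (0.0525) and with the fit on only these groups (0.0716). XTH24 came next, -1.19 ± 0.17 (adjusted p = 0.0633), followed by XTH15, -0.74 ± 0.12 (0.0825), XTH13, -0.76 ± 0.13 (0.095), and XTH6, -0.77 ± 0.14 (0.0985). All 15 members of group II had a log2 fold change below 0, where 50.8% of all genes did. They ran from -1.19 for XTH24 to -0.089 for XTH22, and their median was -0.56 against -0.0046 over all genes. These members were read from the same libraries, so they are not independent of each other. Without IAA replicate 1 XTH22 turned to 0.417. Unadjusted p was under 0.05 for 14 of the 30 members (46.7%), all lower with MT, where 17.4% of all genes had such a p, 8.28% lower and 9.08% higher. DESeq2 called 10 of the 28 members to which it gave an adjusted p, and 7.12% of all genes. Both MT libraries lay below both IAA libraries for 20 members and above them for 2, where 50.4% of all genes did not overlap. Root markers stood beside this: 23 of 24 had a log2 fold change below 0 between MT and IAA, with a median of -0.59 and 1 called lower (11 by DESeq2), MRN1 (AT5G42600), a root triterpene enzyme. Of the 19 green shoot markers 18 were above 0, with a median of 0.41 and RBCS3B (AT5G38410), a Rubisco small subunit, called higher (14 markers by DESeq2). The part of root and shoot content in the difference was not tested.

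Other genes of xyloglucan and of the wall it binds were read from the same fit. Like the XTH members, these lists were chosen with earlier results of these data known, so their shares only describe them. Of 14 genes of xyloglucan synthesis 1 fell and 0 rose with MT in edgeR's test, and 1 fell and 1 rose with DESeq2, which called 14.2% of all genes. In edgeR's test XXT5 (AT1G74380), a xylosyltransferase of the side chains, went from 134.5 ± 1.83 to 97.2 ± 8.64 CPM (-0.47 ± 0.09, adjusted p = 0.0293). This share of 7.14% is close to the 7.65% of all genes that changed with MT, so it is no result about the list. CSLC4 (AT3G28180), which makes the glucan backbone, had 0.02 ± 0.13 (adjusted p = 0.938). Of 6 genes that trim or acetylate xyloglucan 2 rose and 1 fell with MT, where 3.99% of all genes rose and 3.65% fell. The fucosidase gene AXY8 (AT4G34260) fell from 183 ± 2.04 to 114 ± 16.0 CPM (-0.68 ± 0.11, adjusted p = 0.0156). XYL1 (AT1G68560), an alpha-xylosidase, rose from 218 ± 8.09 to 307 ± 0.399 CPM (0.50 ± 0.11, adjusted p = 0.0447), and the beta-glucosidase gene BGLC3 (AT5G04885) rose by 0.42 ± 0.10 (adjusted p = 0.0488). Of 10 genes of primary wall cellulose synthesis 6 fell with MT (60%, against 3.65% of all genes), 0 rose and 4 did not pass. They included KOR1 (AT5G49720), an endoglucanase (-0.66 ± 0.08, adjusted p = 0.0077), CESA3 (AT5G05170), a catalytic subunit of cellulose synthase (-0.67 ± 0.09, 0.0103), COB (AT5G60920), which orients cellulose deposition (-0.68 ± 0.11, 0.0169), and CSI1 (AT2G22125), which links the synthase to microtubules (-0.58 ± 0.10, 0.0213). With IAA DESeq2 called 0, 0 and 3 genes of these lists, and 3.66% of all genes. In edgeR's test 0 of these 30 genes passed with IAA, with 2 of 14, 3 of 6 and 4 of 10 at an unadjusted p under 0.05 (14.3% of all genes had such a p, the same share as in the first list). CESA1 (AT4G32410) came nearest (-0.53, adjusted p = 0.0729). Between MT and IAA 0 passed, with 3, 2 and 5 at an unadjusted p under 0.05, where 17.4% of all genes had such a p. All of these were lower with MT except 1 of the trimming genes, XYL1. DESeq2 called 0, 1 and 5, all lower, where it called 7.12% of all genes. Of the 3 touch-induced calmodulin genes that were found together with XTH22, TCH2 (AT5G37770) rose with MT (0.80 ± 0.08, adjusted p = 0.0048), TCH3 (AT2G41100) had 0.004 and TCH1 (AT2G41110) -0.46 (adjusted p = 0.0989).

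Root and shoot markers also moved between MT and control. These lists too were chosen with earlier results of these data known. Of the 24 root markers 5 fell and 0 rose with MT in edgeR's test (6 and 0 by DESeq2), where 3.65% of all genes fell and 3.99% rose. These were MRN1 (-1.90 ± 0.17), TIP2;3 (-0.95 ± 0.12), CASP5 (-1.27 ± 0.21), MRO (-1.15 ± 0.21) and THAS1 (-0.77 ± 0.16). Over all genes DESeq2 called 14.2% with MT. In all, 18 of the 24 root markers were below 0, with a median of -0.29, where 49.8% of all genes were below 0. The other 6 were above 0 and not called, from 0.01 ± 0.08 for SCR to 0.78 ± 0.28 for PLT2. Among them were also PLT1 (0.61 ± 0.29) and SMB (0.47 ± 0.22). The summed level of the 24 root markers, of which PYK10 made up 85.3% in the control, was 88.7% of the control mean. That of the XTH family, in which XTH4 and XTH24 weighed most, was 70.3% with them and 91.2% without them. Of the 19 green shoot markers 10 rose and 0 fell (12 and 1 by DESeq2), with a median of 0.53, and their summed level was 105% of the control. With IAA 2 of the 19 green shoot markers rose, LHCB1.2 and LHCB3, and 0 fell in edgeR's test, where 0.272% of all genes rose. DESeq2 called 4 higher and 3 lower, where it called 3.66% of all genes. The summed level of the 19 with IAA was 85.1% of the control, although 10 of 19 were above 0 with a median of 0.115. RBCS1A (AT1G67090), a Rubisco small subunit, and RCA (AT2G39730), Rubisco activase, made up 51.7% of the green sum in the control, and their log2 fold changes were -0.41 and -0.51 under IAA and -0.19 and -0.38 under MT. No defining marker of either list was at 0. The part of this shift in the XTH differences was not tested.

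**Figure D4:**
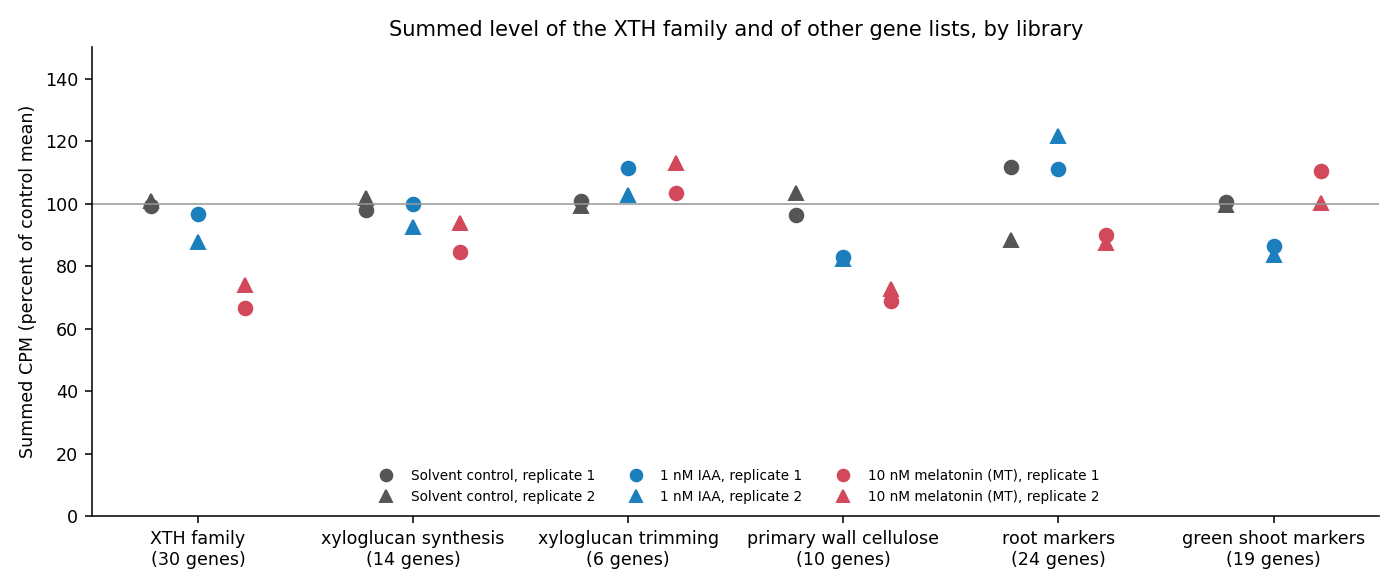
Summed CPM of the XTH family and of 5 gene lists in each library, as a percentage of the mean of the control libraries. The MT libraries of the XTH family and of the cellulose genes lie near 70%, those of the root markers near 89%, and those of the green shoot markers at or above 100%.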

How the data were processed

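The files hold raw counts of reads per gene as deposited by the authors, 1 column for each of 6 libraries, whose groups and replicate numbers were read from the sample titles. Per the submitters' processing notes HTSeq 0.6.1, TopHat2 2.0.12, DESeq 1.18.0 and Bowtie2 2.2.3 were used. Settings, build, annotation and strandedness were not given in the sources used here. Coordinates are therefore left out. The 351 entries named as new genes stayed in library sizes and tests.

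The main test was the quasi-likelihood test of edgeR 4.0.16 under R 4.3.3 (TMM, filterByExpr by group, a group term fitted to all 6 libraries, 3 residual degrees of freedom, Benjamini-Hochberg adjustment over 21355 genes, threshold 0.05, two-sided). An SE is the absolute log2 fold change over the square root of F. DESeq2 1.42.0 was an alternative, beside other scaling factors, no filter, robust empirical Bayes, a fit on only the groups compared, a replicate block and leaving out each library. The fitting code was checked on simulated counts. Replicates differed far beyond counting noise (chi-square per degree of freedom 25.6 to 32.8) and were kept as separate samples.

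RefSeq's TAIR10.1 annotation gave coding lengths, neighbours and sequences; Biopython 1.88 computed identities. Full values are given for members called in any comparison, XTH22 and the 5 highest per kb, and up to 4 called genes per list and comparison. XTH14, the fifth root marker named and the other single values were chosen after they were seen. The members and lists were chosen with earlier results of these data known.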

Additional observations from a re-analysis of the deposited data

How the results depend on the processing

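With MT against control the count of 10 members was 9 to 10 with other scaling factors, no filter, robust empirical Bayes and the replicate block, 8 on only these groups and 14 with DESeq2. It ran from 4 to 10 when 1 library was left out, while all genes called went from 1633 to between 493 and 1300, and to 2905 with DESeq2. With IAA against control the count of 0 members was 1 on only these groups, 8 with DESeq2 and 0 to 1 with a library left out, and the 71 genes called became 130 with robust empirical Bayes, 125 on only these groups, 768 with DESeq2 (413 higher and 355 lower, against 58 and 13) and 15 to 113 with a library left out. With MT against IAA the count of 1 member was 2 without a filter, 3 with robust empirical Bayes, 0 on only these groups, 10 with DESeq2 and 0 to 5 with a library left out. All genes called there went from 37 to 76, 142, 6, 1225 and 6 to 340 in the same order, the 340 without MT replicate 2. Where a library was left out, the lone sample of its group was assumed to vary like the others. The cause of these shifts was not tested.

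Same-numbered libraries shared little deviation: their deviations correlated at -0.0077, 0.037 and 0.089 between groups. Whether same-numbered samples were handled together cannot be told from these values. With the replicate number as a block, 12 genes and 0 members were called between MT and IAA, 9 members with MT and 0 with IAA. Of 90 member values 21 changed sign in some setting, 0 of them called. With IAA, log2 fold changes with a library left out ran for XTH11 from -0.276 to 0.015, XTH15 from -0.001 to 0.255, XTH18 from -0.008 to 0.21, XTH21 from -0.378 to 0.746, XTH22 from -0.191 to 0.692, XTH23 from -0.173 to 0.299, XTH28 from -0.078 to 0.057, XTH29 from -0.668 to 0.138 and XTH32 from -0.26 to 0.247. With MT, log2 fold changes with a library left out ran for XTH5 from -0.322 to 0.21, XTH9 from -0.343 to 0.421, XTH11 from -0.641 to 0.883, XTH12 from -0.35 to 0.196, XTH19 from -0.101 to 0.144, XTH20 from -0.403 to 0.19, XTH21 from -1.078 to 0.047 and XTH26 from -0.242 to 0.413. Between MT and IAA, log2 fold changes with a library left out ran for XTH9 from -0.727 to 0.037, XTH11 from -0.517 to 1.008, XTH22 from -0.466 to 0.417 and XTH31 from -0.048 to 0.238. With IAA, XTH28 was also 0.005 with upper quartile factors and XTH32 -0.007 with the replicate block. Over all 30 members and 3 comparisons, 1066 of 1168 values under the alternatives kept direction and side of the threshold, 36 lost a call, 35 gained one and 31 changed sign. Most of these values were not called in the main fit and so had no call to lose. Calls could be lost only by the 10 members called with MT against control and the 1 called between MT and IAA. The summed level of the family with MT, 70.3% of control, was 91.2% without XTH4 and XTH24, a setting chosen after seeing the data. XTH29 had the lowest depth, with 10 to 32 counts per library.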
